A study of Homo sapiens with 16 samples.

Results

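The 10 mRNAs described here encode enzymes of glycolysis and both common subunits of lactate dehydrogenase. They are GPI, ALDOA, TPI1, GAPDH, PGK1, PGAM1, ENO1, PKM, LDHA and LDHB, chosen by name as one set of enzymes. They are 10 of 60564 genes in the deposited table, and all 10 were among the 16241 genes tested. The study followed RNA labelled with 4-thiouridine (4sU), a uridine analogue that is read as C in place of T after SLAM-seq chemistry. The cells were THP-1, a line grown from a human monocytic leukaemia. The groups were ALKBH5 knockdown cells and wild-type control cells, each collected 0, 1.5, 4.5 and 7.5 h into the chase, with 2 libraries per genotype and time. Cells of both genotypes received 100 µM 4sU for 1 h and were then moved to medium with 10 mM uridine, the chase. The labels do not say how the knockdown was made or whether it came from 1 clone, and do not state that the replicates were independent cultures. The spread behind each p-value may therefore be technical.

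Glycolysis turns glucose into pyruvate in the cytosol, yielding ATP and NADH, and lactate dehydrogenase turns pyruvate into lactate while restoring NAD+. The enzymes are abundant proteins present in nearly all cells, their mRNAs are generally long-lived, and leukaemia cells are known for high lactate production. ALKBH5 removes the methyl mark m6A from adenosines in RNA. A conversion rate is the share of a transcript's sequenced T bases read as C, so it is given per T base and can be set side by side between genes. It drops as labelled molecules decay and new, unlabelled ones take their place. Decay that removes labelled and older unlabelled molecules alike does not by itself change it. The rate does not measure how much of a transcript a cell holds.

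Across the tested genes the median rate per library lay between 0.532% and 1.19% in the 8 knockdown libraries and between 0.250% and 0.556% in the 8 control libraries. It was lower at each later time in both genotypes, and every knockdown median lay above the control medians of the same time. Which columns were knockdown was read by elimination, as the other columns carry the initial of control. The T bases behind a rate are not given, so its depth is unknown, and the mismatch background of unlabelled RNA was not measured. Rates cannot show the level of the targeted transcript, and the rate of ALKBH5 itself ran from 0.108% to 3.31% in knockdown and from 0.0982% to 0.812% in control. In the single column of depth-scaled read counts (CPM), whose library or pool of libraries is not named, 10 of 10 monocyte markers had a CPM of at least 1, with a summed CPM of 1544. Of the markers of other cells, 2 of 7 lymphoid, 1 of 6 erythroid and 1 of 8 epithelial and fibroblast genes reached a CPM of 1, and CD3D, CD79A, MS4A1, HBA1, HBA2 and HBB were at 0.

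By that column ALDOA was the most abundant of the enzymes with a CPM of 837, followed by GAPDH with 664, PKM with 431, LDHB with 383, ENO1 with 350 and LDHA with 274. GPI had a CPM of 95.3, TPI1 of 93.6 and PGK1 of 65.0. PGAM1 stood apart with a CPM of 3.12, under the median of 9.66 over the tested genes. CPM is not per length, so these values order reads and not molecules.

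In GENCODE 29 on GRCh38 the genes lie on separate chromosomes, except that TPI1, GAPDH and LDHB share chromosome 12. Their positions are GPI at chr19:34359480-34402413 on the plus strand, ALDOA at chr16:30064164-30070457 on the plus strand, TPI1 at chr12:6867119-6870948 on the plus strand, GAPDH at chr12:6533927-6538374 on the plus strand and PGK1 at chrX:77910739-78129296 on the plus strand. The remaining ones are PGAM1 at chr10:97426160-97433441 on the plus strand, ENO1 at chr1:8861000-8879250 on the minus strand, PKM at chr15:72199029-72231822 on the minus strand, LDHA at chr11:18394388-18408425 on the plus strand and LDHB at chr12:21635342-21757857 on the minus strand. The gene models differ in composition. In the principal coding transcripts of GENCODE 29 on GRCh38, T made up 19.2% of ALDOA, 19.8% of GAPDH, 19.9% of ENO1 and 20.1% of PKM, against a median of 24.96% over 12345 tested coding genes, while LDHA with 28.0% and PGK1 with 29.7% lay above it. The sequence GGACT, a frequent context of m6A given here in DNA letters, was counted on the transcript strand. PKM held 6 and TPI1 held 3, which per kb were 2.21 and 2.44, against a median of 0.930 per kb over those coding genes, of which 91.1% held at least 1. LDHB and ALDOA held none. Of the set, LDHB had the largest genotype effect after TPI1, and ALDOA had the steepest rise in knockdown. Whether matches go with rates was not tested. A match is a description of the letters and not a methylated site. The windows of PKM and TPI1 are shown because these transcripts had the densest matches, PKM was the one enzyme whose rate fell in knockdown, and TPI1 had the largest genotype effect. Each gives the matched GGACT in capitals with 10 bases on either side, 5′ to 3′ on the strand of the gene, which is minus for PKM and plus for TPI1.
PKM chr15:72219058-72219082: agtgaagccgGGACTgccttcattc
PKM chr15:72209747-72209771: tcctgtggctGGACTacaagaacat
PKM chr15:72208795-72208819: gggctgctgtGGACTtgcctgctgt
PKM chr15:72206750-72206774: cagccaaaggGGACTatcctctgga
PKM chr15:72199390-72199414: gaggaatgctGGACTggaggcccct
PKM chr15:72199294-72199318: gatgcccagaGGACTcccaaccctg
TPI1 chr12:6869284-6869308: tctggcagagGGACTcggagtaatc
TPI1 chr12:6869688-6869712: ataacgtgaaGGACTggagcaaggt
TPI1 chr12:6870411-6870435: gccaagccagGGACTaagcagccca
The PKM matches lie in coding exons 2, 5, 6 and 8 and, for the last 2 listed, in the 3′ UTR of exon 11. Those of TPI1 lie in coding exons 4 and 5 and, for the last, in the 3′ UTR of exon 7. Over all members, 17 of the 29 matches lay in coding sequence, 9 in 3′ UTRs and 3 in 5′ UTRs.

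Several of these genes are known targets of the hypoxia-inducible factors, which bind elements with the core ACGTG. This core, on either strand as ACGTG or CACGT, was searched in the 250 bases before each start in RefSeq promoters of GRCh38.p14, and a CACGTG holds both and was counted at each start. It was in 8 of 14 windows of the members, against 18.5% of 35116 windows of the same length, and ALDOA had it in each of its windows. Those lie at chr16:30064029-30064278, chr16:30064247-30064496 and chr16:30065510-30065759, the first overlapping the second. Windows of the same gene are not independent, so ALDOA weighs more in the 8 of 14 than a gene with 1 window. The core was in 6 of 10 members, each counted if any of its windows matched. No share per gene was made for all genes, so the 18.5% is not a background for that count. The windows of LDHA, PGK1 and PKM are shown, with matches in capitals and on the strand of the gene, as examples of windows with several matches and with none. The LDHA window at chr11:18394313-18394562 had 5 matches, the PGK1 window at chrX:78103998-78104247 had 2 and the PKM window at chr15:72231191-72231440, on the minus strand, had none. The second LDHA window, at chr11:18396101-18396350, had 0 matches, and the windows of LDHB, ENO1 and PGAM1 had none. The starts are those of the promoter set and can lie inside the gene models above, as for PGAM1 with its window at chr10:97427568-97427817. Every window of GPI, TPI1, GAPDH, PGK1, PGAM1, ENO1, PKM and LDHB lay wholly inside its gene model. For these genes the bases before the start of the gene model were not searched. Only the LDHA window with 5 matches and the ALDOA window at chr16:30064029-30064278 reached in part before that start. GPI had 1 match, and TPI1 had 1 in 1 of its 2 windows.
LDHA: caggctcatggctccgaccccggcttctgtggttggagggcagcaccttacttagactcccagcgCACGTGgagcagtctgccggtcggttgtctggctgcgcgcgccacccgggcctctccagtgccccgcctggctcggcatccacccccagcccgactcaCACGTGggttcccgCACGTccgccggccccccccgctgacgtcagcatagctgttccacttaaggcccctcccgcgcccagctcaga
PGK1: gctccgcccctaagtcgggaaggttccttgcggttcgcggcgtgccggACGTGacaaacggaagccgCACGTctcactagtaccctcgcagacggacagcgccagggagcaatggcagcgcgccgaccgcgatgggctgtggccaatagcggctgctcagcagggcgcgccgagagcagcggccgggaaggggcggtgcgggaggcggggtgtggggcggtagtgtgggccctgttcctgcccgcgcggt
PKM: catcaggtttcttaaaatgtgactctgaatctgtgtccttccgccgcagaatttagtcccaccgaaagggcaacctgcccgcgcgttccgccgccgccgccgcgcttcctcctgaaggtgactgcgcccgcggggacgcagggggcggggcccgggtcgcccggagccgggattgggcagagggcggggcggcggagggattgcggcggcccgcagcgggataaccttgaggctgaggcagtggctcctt
No measurement of binding was made in these libraries, and a window without a match says only that these letters are not in it.

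At the end of the pulse all 10 enzymes lay under the median rate of the tested genes, in every library of both genotypes. In knockdown at 0 h the order of mean rates was PGAM1 (0.994%), PKM (0.773%), GPI (0.617%), ENO1 (0.503%), LDHB (0.396%), LDHA (0.364%), GAPDH (0.363%), TPI1 (0.328%), PGK1 (0.316%) and ALDOA (0.259%). In control it was PGAM1 (0.319%), PKM (0.296%), GPI (0.280%), ENO1 (0.227%), PGK1 (0.197%), ALDOA (0.155%), LDHA (0.151%), GAPDH (0.135%), TPI1 (0.127%) and LDHB (0.126%). PGAM1, PKM, GPI and ENO1 were thus the highest of the set in both genotypes. Between neighbours in the knockdown order, the 2 libraries of each gene did not overlap between PKM and GPI, between ENO1 and LDHB, and between PGK1 and ALDOA, and overlapped between all other neighbours. In the control order they did not overlap between ENO1 and PGK1 or between PGK1 and ALDOA.

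Relative to the median of all genes, the mean rate of each enzyme was higher at the end of the chase than at its start. The mean rate as a multiple of the library median ranged at 0 h from 0.220 for ALDOA to 0.841 for PGAM1 in knockdown and from 0.230 for LDHB to 0.584 for PGAM1 in control. At 7.5 h it ranged from 0.806 for PKM to 1.91 for PGAM1 in knockdown and from 0.642 for ALDOA to 1.46 for PGAM1 in control. The median over the 10 enzymes was 0.322, 0.463, 0.680 and 1.05 along the chase in knockdown and 0.322, 0.465, 0.654 and 0.956 in control. At 7.5 h, 6 of 10 in knockdown and 4 of 10 in control were at or above the library median, and at 0 h none was in either genotype.

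**Figure D1:**
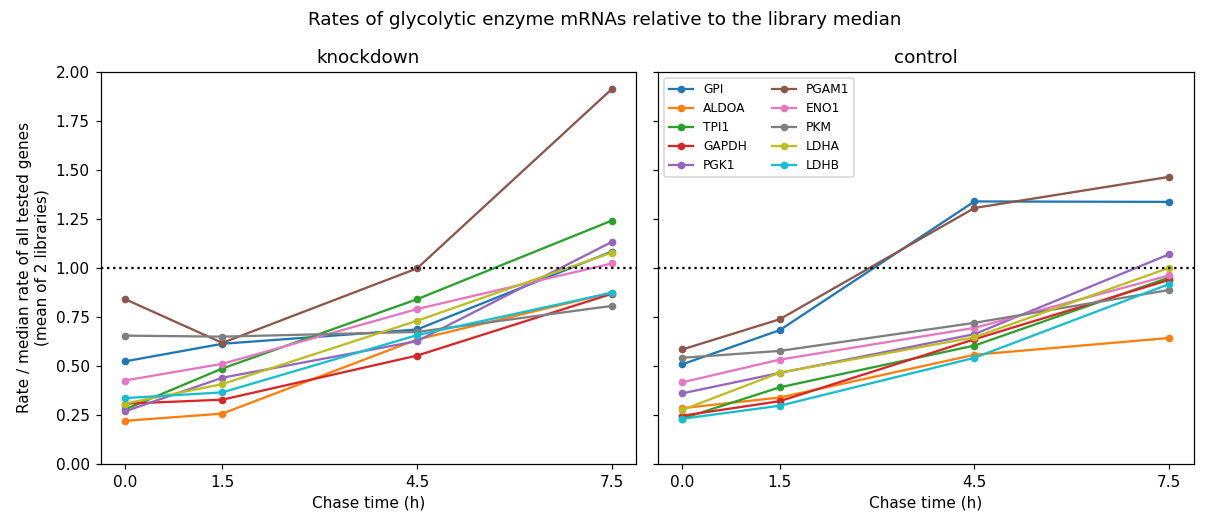
Mean conversion rate of each glycolytic enzyme mRNA divided by the median rate of the tested genes in the same library, against chase time in hours, for knockdown (left) and control (right); points are means of 2 libraries and the dotted line is the library median. All 10 enzymes start below 1 and 6 in knockdown and 4 in control stand at or above 1 by 7.5 h.

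Slopes, the change of log2(rate in percent + 0.05) per hour of chase with a pseudocount of 0.05 percentage points, put this per gene. With limma and Benjamini-Hochberg adjustment over all tested genes, 4 members rose in knockdown (ALDOA, TPI1, PGK1 and LDHA), where 4.06% of tested genes did, and 1 fell (PKM), where 37.9% did. In control 2 rose (LDHB and GAPDH), where 3.45% of tested genes did, and none of the 10 fell, where 34.4% did. At an unadjusted p under 0.05 without passing were GAPDH and LDHB upward in knockdown and, in control, LDHA and TPI1 upward and PKM downward. Without knockdown replicate 2 at 0 h, 410 of the tested genes rose in knockdown, against 659 with all libraries. The median slope of the members was 0.04 in knockdown and 0.04 in control, against −0.13 and −0.11 over all tested genes, and the slope of each member lay above the median of all genes in both genotypes. Among tested genes with a CPM of at least 20, 9.96% rose in knockdown and 7.71% in control, with median slopes of −0.10 and −0.08. Without the 0 h libraries PGK1 (0.05, adjusted p = 0.401), LDHA (0.06, adjusted p = 0.194) and TPI1 (0.05, adjusted p = 0.403) no longer passed in knockdown. Without the 7.5 h libraries PGK1 (0.09, adjusted p = 0.172) and LDHA (0.11, adjusted p = 0.0918) in knockdown and GAPDH (0.11, adjusted p = 0.0723) in control did not pass.

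**Figure D2:**
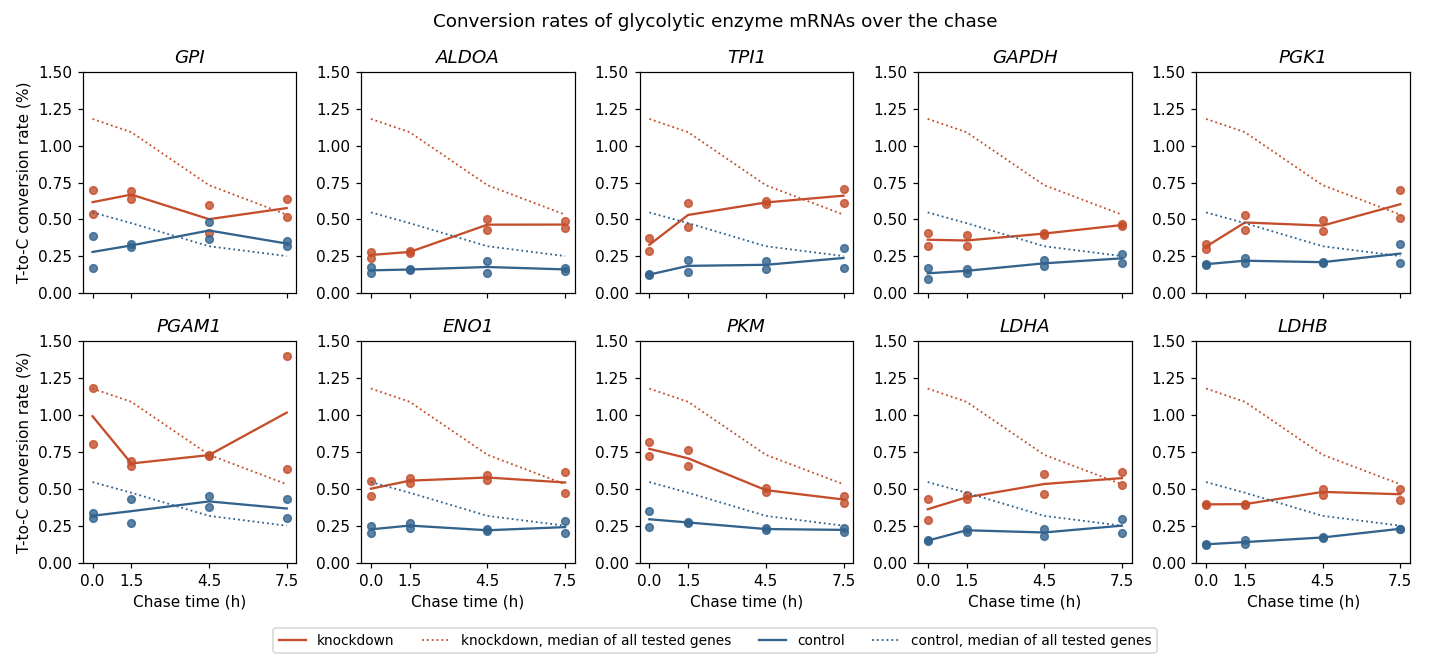
Conversion rate in percent against chase time in hours for each enzyme, in pathway order, with 1 point per library, solid lines through the means of 2 libraries in knockdown (orange) and control (blue), and dotted lines for the median of all tested genes. The mean of PKM in knockdown is 0.773% at 0 h and 0.429% at 7.5 h, while the knockdown means of ALDOA, TPI1, PGK1 and LDHA end above their start and both median lines decline.

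GPI, glucose-6-phosphate isomerase, carries the carbon of glucose-6-phosphate to fructose-6-phosphate. Its knockdown libraries had 0.534% and 0.701% after 0 h, 0.696% and 0.641% after 1.5 h, 0.596% and 0.408% after 4.5 h and 0.515% and 0.640% after 7.5 h of chase. Its control libraries had 0.170% and 0.390% after 0 h, 0.335% and 0.313% after 1.5 h, 0.486% and 0.364% after 4.5 h and 0.320% and 0.354% after 7.5 h of chase. The genotypes overlapped at 4.5 h, where a control library stood between the knockdown libraries, and were apart at the other times. The slope was −0.027 (SE 0.0364, adjusted p = 0.591) in knockdown and 0.044 (SE 0.0364, adjusted p = 0.373) in control, so neither passed.

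ALDOA, fructose-bisphosphate aldolase A, splits the 6-carbon sugar into triose phosphates. Knockdown libraries for ALDOA had 0.277% and 0.242% after 0 h, 0.286% and 0.274% after 1.5 h, 0.429% and 0.5002% after 4.5 h and 0.444% and 0.487% after 7.5 h of chase. Control libraries for ALDOA had 0.176% and 0.135% after 0 h, 0.164% and 0.158% after 1.5 h, 0.140% and 0.216% after 4.5 h and 0.175% and 0.149% after 7.5 h of chase. The rate rose in knockdown with a slope of 0.11 (SE 0.0210, adjusted p = 0.000530), all 4 late libraries lying above all 4 early ones, while the control slope was 0.0082 (SE 0.0210, adjusted p = 0.800). In knockdown the mean at 7.5 h was 1.79 times that at 0 h, and in control 1.04 times. ALDOA had the widest gap between slopes of the set, knockdown minus control 0.10 with a 95% interval of 0.040 to 0.17 and an unadjusted p of 0.00320, which did not pass over all genes (adjusted p = 0.443).

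TPI1, triosephosphate isomerase, interconverts the triose phosphates. Knockdown libraries for TPI1 had 0.372% and 0.285% after 0 h, 0.448% and 0.614% after 1.5 h, 0.627% and 0.603% after 4.5 h and 0.710% and 0.613% after 7.5 h of chase. Control libraries for TPI1 had 0.131% and 0.122% after 0 h, 0.227% and 0.144% after 1.5 h, 0.166% and 0.220% after 4.5 h and 0.305% and 0.173% after 7.5 h of chase. Its knockdown rate rose by 0.11 (SE 0.0329, adjusted p = 0.0153) log2 per hour, and both 0 h libraries lay below all later ones. The control slope was 0.077 (SE 0.0329, adjusted p = 0.0788). The knockdown call was lost without replicate 2 of the knockdown 0 h group, which left 0.08 (adjusted p = 0.0859), and the control slope passed without control replicate 1 at 1.5 h at 0.09 (adjusted p = 0.0358) or replicate 2 at 7.5 h at 0.11 (adjusted p = 0.0258).

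GAPDH, which oxidises glyceraldehyde-3-phosphate and makes NADH, and PGK1, phosphoglycerate kinase, which makes the first ATP of the payoff steps, act in sequence. For GAPDH the knockdown libraries had 0.407% and 0.319% after 0 h, 0.398% and 0.317% after 1.5 h, 0.412% and 0.398% after 4.5 h and 0.454% and 0.471% after 7.5 h of chase. For GAPDH the control libraries had 0.0984% and 0.172% after 0 h, 0.167% and 0.137% after 1.5 h, 0.181% and 0.224% after 4.5 h and 0.207% and 0.266% after 7.5 h of chase. The rate rose in control with a slope of 0.089 (SE 0.0213, adjusted p = 0.00371) and had a knockdown slope of 0.046 (SE 0.0213, adjusted p = 0.0971). The 7.5 h mean was 1.27 times the 0 h mean in knockdown and 1.75 times in control.

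For PGK1 the knockdown libraries had 0.2996% and 0.333% after 0 h, 0.430% and 0.529% after 1.5 h, 0.497% and 0.420% after 4.5 h and 0.697% and 0.510% after 7.5 h of chase. For PGK1 the control libraries had 0.201% and 0.193% after 0 h, 0.204% and 0.237% after 1.5 h, 0.215% and 0.206% after 4.5 h and 0.334% and 0.204% after 7.5 h of chase. Its knockdown rate rose by 0.088 (SE 0.0283, adjusted p = 0.0193) log2 per hour, with both 0 h libraries the lowest, and the control slope was 0.037 (SE 0.0283, adjusted p = 0.327). This call was lost without knockdown replicate 1 at 0 h, leaving 0.07 (adjusted p = 0.0853), replicate 2 at 0 h, leaving 0.08 (adjusted p = 0.0615), or replicate 1 at 7.5 h, leaving 0.07 (adjusted p = 0.131).

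PGAM1, phosphoglycerate mutase, and ENO1, enolase, lead to phosphoenolpyruvate. PGAM1 had the widest spread of the set, in knockdown 1.18% and 0.804% after 0 h, 0.653% and 0.694% after 1.5 h, 0.727% and 0.733% after 4.5 h and 0.635% and 1.40% after 7.5 h of chase. In control PGAM1 had 0.338% and 0.301% after 0 h, 0.267% and 0.434% after 1.5 h, 0.378% and 0.455% after 4.5 h and 0.433% and 0.304% after 7.5 h of chase. The 2 knockdown libraries at 7.5 h stood on either side of the knockdown values at 1.5 and 4.5 h, and its slopes were 0.0099 (SE 0.0607, adjusted p = 0.916) in knockdown and 0.027 (SE 0.0607, adjusted p = 0.771) in control. The ENO1 knockdown libraries had 0.555% and 0.450% after 0 h, 0.574% and 0.540% after 1.5 h, 0.559% and 0.598% after 4.5 h and 0.615% and 0.475% after 7.5 h of chase. Control libraries for ENO1 had 0.252% and 0.202% after 0 h, 0.238% and 0.268% after 1.5 h, 0.213% and 0.229% after 4.5 h and 0.202% and 0.283% after 7.5 h of chase. The ENO1 slopes were 0.011 in knockdown (95% interval −0.031 to 0.054) and 0.00018 in control (95% interval −0.042 to 0.043).

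PKM, pyruvate kinase, which makes pyruvate and ATP, was the member whose rate fell in knockdown. The PKM knockdown libraries had 0.725% and 0.820% after 0 h, 0.762% and 0.655% after 1.5 h, 0.508% and 0.478% after 4.5 h and 0.453% and 0.406% after 7.5 h of chase. The PKM control libraries had 0.351% and 0.240% after 0 h, 0.268% and 0.280% after 1.5 h, 0.222% and 0.237% after 4.5 h and 0.213% and 0.235% after 7.5 h of chase. In knockdown both early times lay above both late times, and the slope was −0.11 (SE 0.0178, adjusted p = 0.000138), which for rate plus pseudocount corresponds to halving in 9.07 h (95% interval 6.75 to 13.8 h). In control it was −0.045 (SE 0.0178, adjusted p = 0.0563), and it passed when control replicate 2 at 0 h, the lower of that group, was left out (−0.06, adjusted p = 0.0199). The PKM knockdown slope lay close to the median of −0.13 over all genes, and the slopes of knockdown and control differed by −0.065 (95% interval −0.12 to −0.012, unadjusted p = 0.0199, adjusted p = 0.544).

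LDHA and LDHB encode the subunits whose mixing gives the lactate dehydrogenase isoenzymes, LDHA being the form more associated with lactate production. The LDHA knockdown libraries had 0.435% and 0.292% after 0 h, 0.458% and 0.431% after 1.5 h, 0.602% and 0.467% after 4.5 h and 0.618% and 0.531% after 7.5 h of chase. The LDHA control libraries had 0.146% and 0.156% after 0 h, 0.211% and 0.231% after 1.5 h, 0.185% and 0.227% after 4.5 h and 0.206% and 0.299% after 7.5 h of chase. LDHA rose in knockdown by 0.078 (SE 0.0250, adjusted p = 0.0199) log2 per hour, and its control slope was 0.059 (SE 0.0250, adjusted p = 0.0772). The knockdown call was lost without replicate 2 of the knockdown 0 h group, at 0.05 (adjusted p = 0.112), and without replicate 1 of the knockdown 7.5 h group, at 0.07 (adjusted p = 0.0762). It was also lost without a variance trend, at an adjusted p of 0.0538. In control it passed without replicate 2 at 1.5 h, at 0.07 (adjusted p = 0.0472), or replicate 1 at 7.5 h, at 0.08 (adjusted p = 0.0386).

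The LDHB knockdown libraries had 0.394% and 0.399% after 0 h, 0.401% and 0.395% after 1.5 h, 0.459% and 0.503% after 4.5 h and 0.503% and 0.427% after 7.5 h of chase. The LDHB control libraries had 0.121% and 0.131% after 0 h, 0.126% and 0.156% after 1.5 h, 0.174% and 0.171% after 4.5 h and 0.232% and 0.230% after 7.5 h of chase. LDHB replicates lay close together, and its rate rose in control with a slope of 0.089 (SE 0.0145, adjusted p = 0.000177) and a 7.5 h mean 1.83 times the 0 h mean. In knockdown the slope was 0.033 (SE 0.0145, adjusted p = 0.0765) and the ratio 1.17, and the slope passed without knockdown replicate 2 at 7.5 h (0.05, adjusted p = 0.0278). The slopes of knockdown and control differed by −0.056 (95% interval −0.10 to −0.012, unadjusted p = 0.0152, adjusted p = 0.520).

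**Figure D3:**
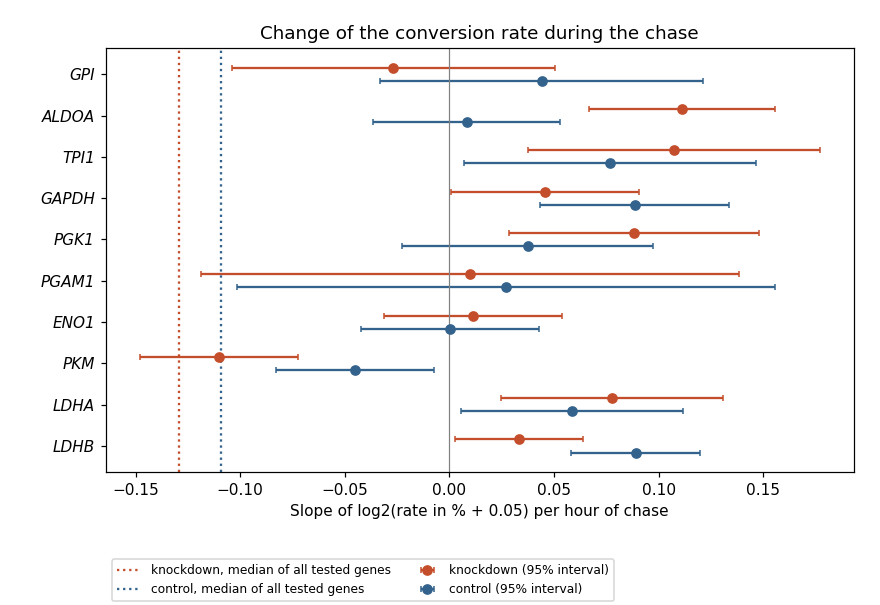
Slope of log2(rate in percent + 0.05) per hour for each enzyme in knockdown (orange, upper of each pair) and control (blue), with moderated 95% intervals; dotted lines mark the median slope of all tested genes in each genotype. Every enzyme lies to the right of the median of its genotype, from −0.11 for PKM to 0.11 for ALDOA in knockdown.

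No slope difference passed over all genes: limma called 0% of the 16241 tested genes and none of the 10 members. At an unadjusted p under 0.05 it gave 1269 genes, among them ALDOA, LDHB and PKM. Which genotype's slope was called for a given enzyme is therefore not shown to differ between genotypes.

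The group means at the ends of the chase gave similar calls. From 0 h to 7.5 h, PGK1, LDHA, ALDOA and TPI1 rose in knockdown (4 of 10, where 4.4% of tested genes rose) and PKM fell (1 of 10, where 33.8% fell). In control GAPDH, LDHA and LDHB rose (3 of 10, where 3.71% did). These counts went down to 2 without knockdown replicate 2 at 0 h, to 1 without knockdown replicate 1 at 7.5 h and, for control, to 1 without control replicate 1 at 0 h. Over all tested genes the numbers that rose were as low as 463 against 714 in knockdown, without knockdown replicate 2 at 0 h, and 400 against 602 in control, without control replicate 1 at 0 h. The number in knockdown was also down by over 1.5 times without knockdown replicate 1 at 7.5 h. PKM fell in control in this comparison without control replicate 2 at 0 h. Over the first 1.5 h no member was called, where 0.0554% of tested genes were in knockdown and 0.0739% in control. At an unadjusted p under 0.05, PGK1 and TPI1 in knockdown and LDHA in control differed over that interval, all upward. The slopes and end differences of a genotype share the same libraries and are not independent of each other.

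When each library was centred on its own median log2 rate, the slope became one relative to the common decline, which was −0.150 log2 per hour in knockdown and −0.136 in control. Of the members, 8 of 10 were then higher in knockdown, where 17.7% of tested genes were, and 9 of 10 in control, where 17.6% were. Among genes with a CPM of at least 20 these shares were 35.3% and 35.4%. The centred slopes ran from 0.04 for PKM to 0.26 for ALDOA in knockdown and from 0.09 for PKM to 0.22 for LDHB in control. Those that did not pass were PKM (adjusted p = 0.113) and PGAM1 (adjusted p = 0.0689) in knockdown and PGAM1 (adjusted p = 0.0637) in control. The centred call of GPI in knockdown was lost without replicate 1 of the knockdown 0 h group (0.11, adjusted p = 0.0804), and without replicate 1 (0.13, adjusted p = 0.0568) or replicate 2 (0.10, adjusted p = 0.124) of the knockdown 7.5 h group. It was lost with no CPM minimum (0.13, adjusted p = 0.147). It was also lost without all 0 h (0.13, adjusted p = 0.0883) or all 7.5 h libraries (0.08, adjusted p = 0.438), as were GPI in control without those at 0 h (0.14, adjusted p = 0.0583) and PKM in control without those at 7.5 h (0.09, adjusted p = 0.0640). PGAM1 passed in knockdown without knockdown replicate 1 at 0 h (0.20, adjusted p = 0.0497) and in control without knockdown replicate 2 at 7.5 h (0.16, adjusted p = 0.0484). At a pseudocount of 0.2, PKM (0.04, adjusted p = 0.0354) and PGAM1 (0.14, adjusted p = 0.0361) passed in knockdown. Without a variance trend PGAM1 passed in knockdown (adjusted p = 0.0216) and control (adjusted p = 0.0206), and with no CPM minimum in control (0.30, adjusted p = 0.0207).

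Between genotypes, all 10 enzymes had higher rates in knockdown than in control over the chase, where 69.6% of tested genes did, and 92.9% of those with a CPM of at least 20. The largest effect was that of TPI1, knockdown minus control 1.30 (SE 0.119, adjusted p = 2.43e-07) on the log2(rate + 0.05) scale, followed by LDHB at 1.18 (SE 0.0688, adjusted p = 2.69e-09). The smallest were GPI at 0.73 (SE 0.157, adjusted p = 0.000776) and PGK1 at 0.89 (SE 0.111, adjusted p = 5.83e-06). The others ran from 0.93 for ALDOA to 1.09 for PGAM1. The median over the members was 1.05, against 1.02 over all tested genes and 1.06 over those with a CPM of at least 20.

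In 39 of 40 pairs of enzyme and time both knockdown libraries lay above both control libraries. This held for 10 of 10 at 0 h, where it held for 71.1% of tested genes, for 10 at 1.5 h (74.3%), for 9 at 4.5 h (68.2%) and for 10 at 7.5 h (58.9%). The ratio of means, knockdown over control, lay between 1.18 for GPI and 3.19 for TPI1, both at 4.5 h. By limma, 9 of 10 members were higher in knockdown at 0 h, where 35.6% of tested genes were, and 9 at 1.5 h, where 38.9% were. At 4.5 h 8 were higher (38.3% of tested genes) and at 7.5 h 8 (33.5%). With 1 library left out the members higher ranged from 6 to 10 at 0 h, the lowest without knockdown replicate 1 of that time, and from 8 to 9 at 1.5 h. The genes higher over all tested genes were as few as 3302 against 5778 at 0 h, 3699 against 6310 at 1.5 h, 4050 against 6214 at 4.5 h and 3617 against 5448 at 7.5 h, each time without knockdown replicate 1 of that time. They were also down by over 1.5 times without knockdown replicate 2 at 0, 1.5 or 4.5 h, each in its own time, and without control replicate 1 at 0 h or replicate 2 at 1.5 h.

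The exceptions were PGK1 at 0 h (0.57, adjusted p = 0.0631), PGAM1 at 1.5 h (0.88, adjusted p = 0.191) and 4.5 h (0.75, adjusted p = 0.269), GPI at 4.5 h (0.21, adjusted p = 0.597), and both PGAM1 (1.27, adjusted p = 0.0779) and GPI (0.69, adjusted p = 0.0875) at 7.5 h. For PGK1 the 0 h effect passed without either control library at 7.5 h (adjusted p = 0.0309 and 0.0311), and the 7.5 h effect of GPI passed without either control library at 0 h (adjusted p = 0.0307 for both), with the estimates unmoved. The PGAM1 effect at 7.5 h passed without knockdown replicate 1 at 7.5 h (1.81, adjusted p = 0.0467) and without a variance trend (1.27, adjusted p = 0.0264). At a CPM minimum of 20, PGK1 at 0 h (adjusted p = 0.0354) and GPI at 7.5 h (adjusted p = 0.0478) passed. ALDOA at 0 h was lost without knockdown replicate 1 (0.52, adjusted p = 0.0795) or control replicate 2 (0.45, adjusted p = 0.0896) of that time and without a variance trend (adjusted p = 0.0586), and TPI1 at 0 h without knockdown replicate 1 (0.92, adjusted p = 0.0603). GPI at 0 h was lost without knockdown replicate 2 (0.91, adjusted p = 0.0977) or control replicate 1 (0.59, adjusted p = 0.126), and at 1.5 h without any 1 of the 4 libraries of that time (adjusted p from 0.0751 to 0.110) and with no CPM minimum (adjusted p = 0.0522). The PGAM1 call at 0 h, at an adjusted p of 0.0436, was lost without any 1 of 8 libraries, the 4 of that time and the 4 knockdown libraries at 1.5 and 4.5 h (adjusted p from 0.0576 to 0.2). It was also lost at a pseudocount of 0.01 (1.58, adjusted p = 0.0548) and with no CPM minimum (adjusted p = 0.085).

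**Figure D4:**
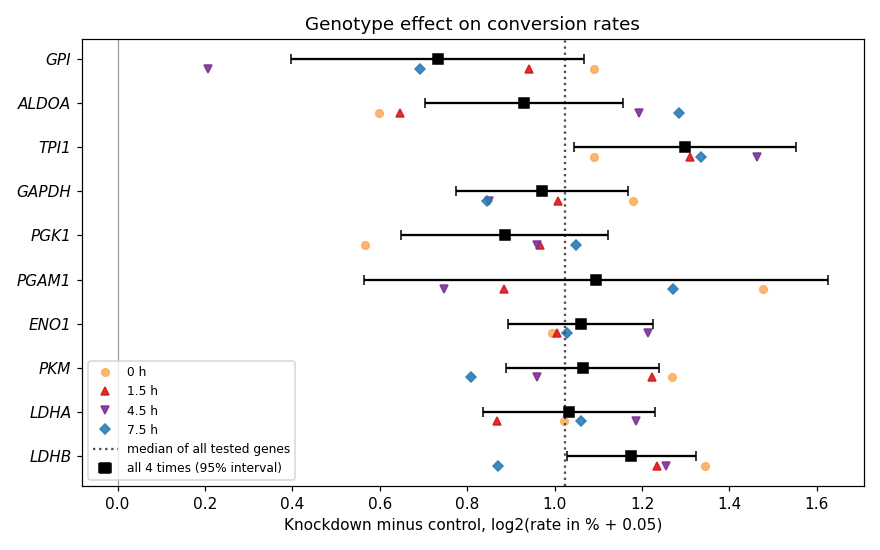
Knockdown minus control in log2(rate in percent + 0.05) for each enzyme, over all 4 times (black squares with moderated 95% intervals) and at each time (coloured symbols), with the median of all tested genes as a dotted line. All values lie right of 0, from 0.73 for GPI to 1.30 for TPI1 over all times.

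Relative to the common shift of 1.05 log2 between the genotypes, no member passed. With centring limma called 0 of 10 members, where 1.45% of tested genes were higher (236, and 151 without knockdown replicate 2 at 4.5 h) and 4.59% lower, and none of the 10 had an unadjusted p under 0.05. The centred effects ran from −0.32 for GPI (95% interval −0.65 to 0.018) to 0.25 for TPI1 (95% interval −0.0035 to 0.50), with LDHB at 0.13 (95% interval −0.0049 to 0.26). The intervals leave room for differences of that size.

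Other parts of carbohydrate metabolism gave a background for the slopes. The counts of the lists stand beside the shares over all tested genes, of which 4.06% rose and 37.9% fell in knockdown and 3.45% rose and 34.4% fell in control. The hexokinase and phosphofructokinase steps, which commit glucose at the head of the pathway, had 10 tested genes, of which none rose and 4 fell in knockdown and none rose and 4 fell in control, with median slopes of −0.17 and −0.15. Their most abundant members were PFKP (−0.07 in knockdown and −0.09 in control, neither passing), the ADP-dependent glucokinase ADPGK, which fell (−0.20 and −0.14), and PFKL (0.05 and 0.02, neither passing). Of other isozymes of the same steps, 2 were tested, and neither slope passed in either genotype. One was ENO3, the muscle enolase, with 0.173% at 0 h and 0.189% at 7.5 h in knockdown and 0.126% and 0.131% in control. ENO3 was higher in knockdown by 0.32 (SE 0.111, adjusted p = 0.0196) and lower relative to the common shift, at −0.73 (adjusted p = 0.0014). The other was BPGM, which makes 2,3-bisphosphoglycerate in red cells, at 0.36 between genotypes (adjusted p = 0.454).

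Of 9 tested glucose and lactate transporters none rose and 4 fell in knockdown, and none rose and 6 fell in control, with median slopes of −0.17 and −0.18. BSG, the chaperone of lactate transporters (0.02 in knockdown and 0.06 in control), and SLC16A3, which exports lactate (−0.04 and −0.03), did not pass, while SLC2A9, a urate and hexose transporter, fell (−0.19 and −0.23). In the pentose phosphate pathway none of 11 tested genes rose or fell in either genotype, with median slopes of 0.03 and −0.00016. Relative to the common decline, 7 of 11 were higher in knockdown and 6 in control, where 17.7% and 17.6% of tested genes were. None was lower, and the centred medians were 0.18 and 0.14, against 0.19 and 0.18 for the glycolytic enzymes. TALDO1 (0.05 in knockdown), TKT (0.07) and PGD (−0.025) were the most abundant. Of 13 tested genes of pyruvate entry into mitochondria 1 rose and 2 fell in knockdown and none rose and 4 fell in control, with medians of −0.10 and −0.10. Among them MPC1, a subunit of the pyruvate carrier, was at 0.03 and DLD, shared by several dehydrogenase complexes, at 0.10, neither passing, and DLAT, of pyruvate dehydrogenase, fell in knockdown (−0.12, adjusted p = 0.0394).

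In the tricarboxylic acid cycle 1 of 18 tested genes rose and 9 fell in knockdown, and 2 rose and 4 fell in control, with medians of −0.08 and −0.02. Relative to the common decline, 8 of 18 were higher in each genotype and none was lower. MDH1, the cytosolic malate dehydrogenase, rose in control (0.07, adjusted p = 0.0166), IDH3B, of isocitrate dehydrogenase, rose in knockdown (0.185, adjusted p = 0.0058), and MDH2 was not called in either (0.03 in knockdown and 0.05 in control). Of 10 tested genes of gluconeogenesis and glycogen none rose and 4 fell in knockdown and likewise in control, with medians of −0.10 and −0.10. UGP2, which makes UDP-glucose, fell in both (−0.08 and −0.09), as did PCK2, the mitochondrial phosphoenolpyruvate carboxykinase (−0.23 and −0.21), and PYGL, liver glycogen phosphorylase, was at 0.015 in knockdown and −0.11 in control, neither passing. The genotype effect was higher in 7 of 10 tested hexokinase and phosphofructokinase genes, 1 of 2 isozymes, 8 of 9 transporters, 9 of 11 pentose phosphate, 11 of 13 pyruvate entry, 16 of 18 tricarboxylic acid cycle and 9 of 10 gluconeogenesis and glycogen genes, where it was in 69.6% of all tested genes, and none was lower. Slopes relative to the common decline were higher in knockdown and control for 4 and 5 of 13 pyruvate entry genes (0 and 2 lower). They were higher for 2 and 2 of 10 gluconeogenesis and glycogen genes and 1 and 1 of 2 isozymes, with none lower. For hexokinase and phosphofructokinase genes 2 and 1 of 10 were higher (0 and 1 lower), and for transporters 2 and 2 of 9 (1 and 2 lower).

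**Figure D5:**
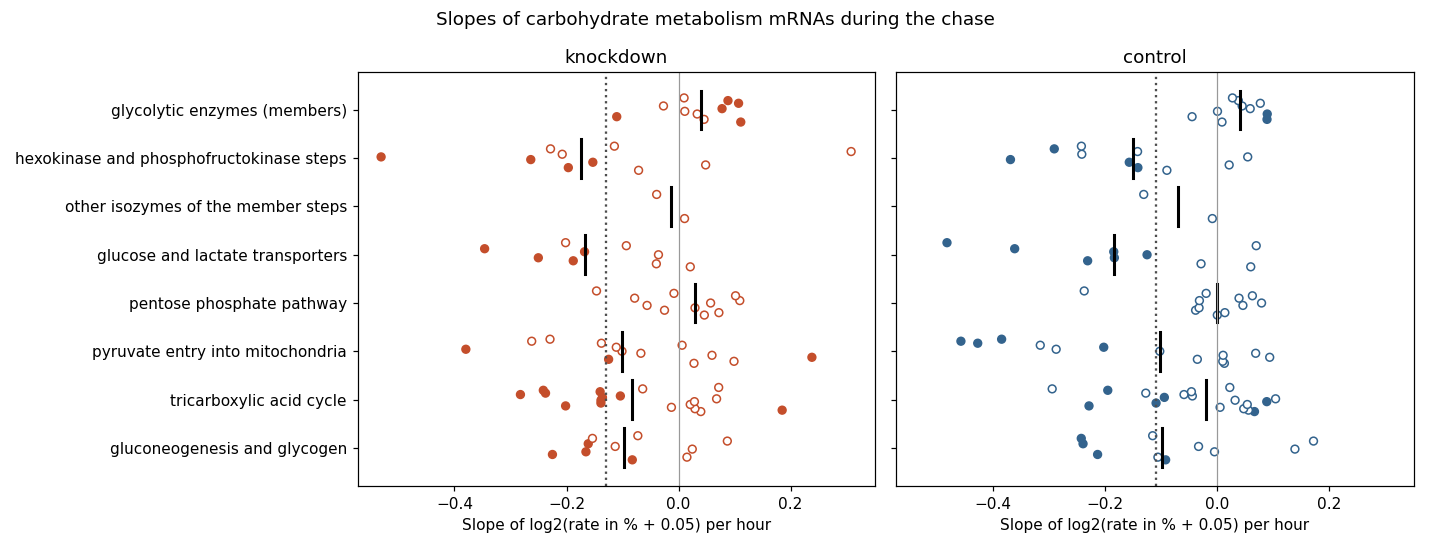
Slopes per hour of the tested genes of 8 lists of carbohydrate metabolism in knockdown (left) and control (right), 1 point per gene, filled where the adjusted p was under 0.05; black bars are list medians and dotted lines the median of all tested genes. Bars of the glycolytic enzymes (0.04 in both), pentose phosphate pathway, other isozymes, tricarboxylic acid cycle, gluconeogenesis and glycogen, and pyruvate entry lie right of the dotted line. Those of the hexokinase and phosphofructokinase steps and of the glucose and lactate transporters lie left of it.

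Across the 16 libraries the centred profiles of the members resembled each other to different degrees. Pearson's r of a member with the mean of the other 9 was highest for LDHA (0.963), LDHB (0.961) and GAPDH (0.958) and lowest for GPI (0.769), PKM (0.771) and PGAM1 (0.809). Among 7988 other genes with a CPM of at least 10, the profiles most like the mean of the members were those of S100A11 (r = 0.992), a calcium-binding protein, YBX1 (0.992), which binds RNA and DNA, CAP1 (0.991), which acts on actin, ATP5PO (0.991), a subunit of ATP synthase, and CDKN3 (0.990), a phosphatase. All profiles come from the same 16 libraries. Centring took out the common decline, and the centred slope of each member was positive in both genotypes. The profiles thus share a trend with time, and these are descriptions.

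Reads of related loci could touch some values. GAPDH has 62 named pseudogenes in GENCODE 29, of which 5 had a CPM of at least 1, with a summed CPM of 19.9 over the 62 against 664 for the gene. For TPI1 the summed CPM of 4 pseudogenes was 9.50 against 93.6, for ENO1 7.88 over 4 against 350, for LDHB 5.95 over 3 against 383 and for PGAM1 0.397 over 13 against 3.12. PGK1 overlaps ATP7A on the same strand and PGAM4 on the other, TPI1 overlaps SPSB2 on the other strand, and ENO1 overlaps its antisense gene ENO1-AS1. How the authors treated reads with several matches, and whether counting used strand, is not given in the sources used here, so the rates of these genes are uncertain to that extent.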

How the data were processed

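The authors deposited, for each gene in each of 16 libraries, a fraction from 0 to 1. The assay and the values mark it as the share of T bases converted to C, given here in percent; no header says so or names a tool. CASAVA, HISAT2 2.1.0 and the build hg38 stand in the submitters' processing notes. Per the labels' protocols, polyadenylated RNA was extracted with TRIzol and sequenced from NEBNext libraries. Per the file headers, 1 further deposited column is CPM, with the library or pool behind it not named; its steps gave whole reads for 100% of values below 1000 reads (tolerance 0.1, 37800087 reads). It was used only to filter, rank and set the variance trend.

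Rates in percent plus a pseudocount of 0.05 were put on the log2 scale and modelled in R 4.3.3 by limma 3.58.1. Variances followed log2(CPM + 0.01), and p-values were adjusted by Benjamini-Hochberg, with a threshold of 0.05. Tests covered the 16241 genes whose CPM was 1 or more and whose rate was above 0 somewhere. Fold changes on this scale understate those of low rates. The genotype effect took chase time as a factor of 4 levels over 16 libraries; slopes came from an intercept and a slope per genotype, and single times from 8 group means. Centred values first subtract each library's median log2 rate. The fit was tested on simulated data.

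The members and lists were chosen with earlier results of these data known. Besides all 10 enzymes, the text names up to 3 genes per list with the highest CPM, the 5 genes most like the members in profile among those with a CPM of at least 10, and ALKBH5. Symbols came from the table for 19309 genes, 9 members among them, and from the reference by Ensembl ID for 41027, LDHB among them. Alternatives were pseudocounts of 0.01 and 0.2, no CPM minimum, a CPM minimum of 20, no variance trend, a replicate block, each library left out and, added after seeing the data, slopes without the 0 h or the 7.5 h libraries.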

Additional observations from a re-analysis of the deposited data

How the results depend on the processing

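Over 2509 values of single enzymes under alternatives, 2386 kept direction and side of the threshold, 43 lost a call, 29 gained one and 51 changed sign. All 10 enzymes stayed higher in knockdown under every alternative that tested them; a CPM minimum of 20 removed PGAM1.

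Of counts of enzymes, the control slope had 1 lower (PKM) at a pseudocount of 0.01 and at a CPM minimum of 20, and the control change to 7.5 h had 1 higher without a variance trend. Knockdown slopes had 1 higher without the 0 h libraries and 2 without the 7.5 h libraries, and control slopes 1 higher without the 7.5 h libraries. The centred genotype effect had 1 lower (GAPDH) at a pseudocount of 0.2 and 7 lower with no CPM minimum, where genes with a CPM under 1 entered the medians and the common shift removed was 1.74 in place of 1.05. Signs of centred genotype effects reversed for LDHA (0.04 at a pseudocount of 0.01), ENO1, PKM and LDHB at 0.2 (−0.067, −0.047 and −0.047), ENO1, PKM, LDHB, TPI1 and PGAM1 with no CPM minimum (−0.68, −0.67, −0.56, −0.44 and −0.64) and ENO1 and PKM at a CPM minimum of 20 (−0.013 and −0.0077). Slopes reversed for ENO1 without 0 h libraries (−0.0065 in knockdown, −0.010 in control) and 7.5 h libraries (−0.013 in control), for PGAM1 in knockdown without 7.5 h libraries (−0.070), and for the PGAM1 slope difference without 0 h libraries (0.064). The cause was not tested.

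With 1 library left out, counts of enzymes ranged from 1 to 5 for rising slopes in knockdown and from 0 to 1 for falling slopes in control, and over 7.5 h from 1 to 4 rising in knockdown and, in control, 1 to 3 rising and 0 to 1 falling. Slopes ranged from −0.0038 to 0.034 for ENO1 and −0.060 to 0.049 for PGAM1 in knockdown, and from −0.0045 to 0.021 for ALDOA, −0.022 to 0.018 for ENO1 and −0.0024 to 0.070 for GPI in control. Slope differences ranged from −0.0065 to 0.034 for ENO1, −0.0054 to 0.041 for LDHA, −0.087 to 0.022 for PGAM1 and −0.0054 to 0.062 for TPI1. Centred genotype effects ranged from −0.030 to 0.043 for ENO1, −0.066 to 0.029 for LDHA, −0.078 to 0.13 for PGAM1 and −0.050 to 0.043 for PKM, and the GPI effect at 4.5 h from −0.043 to 0.46.

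Same-numbered libraries did not deviate together over the tested genes (28 pairs of groups, correlations −0.024 to 0.040). Noise of single genes can hide a shared deviation. This check therefore cannot tell whether libraries with the same number shared a culture or batch. The replicate block kept 109 of 110 values on their side and lost PGAM1 at 0 h (1.48, adjusted p = 0.0538).

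Counts over all genes moved by over 1.5 times for the genotype effect, with 5163 higher at a CPM minimum of 20 against 11297. Falling slopes there numbered 2823 against 6151 in knockdown and 2580 against 5587 in control. These are counts and not shares. The main setting tested 16241 genes, a CPM minimum of 20 left 5511, and no CPM minimum gave 37510. At a CPM minimum of 20, each lower count given here was a larger share of its tested genes. Without 0 h libraries 143 against 659 rose and 3829 against 6151 fell in knockdown, and 153 against 561 rose and 2924 against 5587 fell in control; without 7.5 h libraries 3522 fell in knockdown. Centred genotype calls lower were 463 at a pseudocount of 0.01, 1350 at 0.2 and 5741 with no CPM minimum against 746, and higher 40 with no CPM minimum and 121 without a trend against 236. Centred slopes higher were 1543 against 2867 in knockdown and 5383 against 2852 in control with no CPM minimum. The 5383 were nonetheless a smaller share of their tested genes than the 2852. In control 1885 were higher at a CPM minimum of 20. Without 0 h libraries 1394 were higher in knockdown and 1383 in control. Falls over 7.5 h were 2751 against 5483 in knockdown at a CPM minimum of 20, and the slope difference had 1 call against 0 without a trend. Depth could not be weighed, as the T bases behind a rate are unknown.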
